A study of Homo sapiens with 7 samples.

Results

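The comparison described here is the knockdown (KD) of Star-PAP in HEK293 cells, an established human embryonic kidney line, as it was carried out in 2 batches. It comprises 4 of the 7 libraries of the series, chosen by their labels. Each batch gave 1 library of cells treated with a control siRNA (siCtrl) and 1 library of cells treated with siRNA against Star-PAP (siStarPAP). Batch 1 was made with 3′READS and batch 2 with 3′READS+, and both methods sequence the 3′ end of polyadenylated RNA next to its tail, so that a read marks the polyadenylation site (PAS) at which the RNA was cut. The labels name no other genetic change or drug in these cells, and nothing in the labels says whether the cells of a batch were grown separately. There was 1 library per condition in each batch, so the batches are the only replicates. The p-values of fits over both batches rest on the spread between these 2 comparisons, pooled largely over genes, which may be technical. Those of Fisher's exact test, used for single sites, measure only the counting of reads within a pair of libraries. The KD lowers the RNA through transfected siRNA, and the cells of a library are a pool in which fewer cells of a kind and less RNA per cell cannot be told apart.

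Star-PAP, encoded by TUT1, is a nuclear non-canonical poly(A) polymerase that adds the tail to a subset of mRNAs and can also add uridines to U6 snRNA. It joins the cleavage and polyadenylation machinery, is controlled by phosphoinositide signalling, and has been linked to the 3′ ends of stress genes such as HMOX1 and NQO1 and of the cell death gene BIK. Most genes have more than a single PAS, and a choice between sites, called alternative polyadenylation (APA), changes the length of the 3′ untranslated region (3′UTR) or, when the site lies in an intron, the coding part of the mRNA.

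The 4 libraries held between 2362875 reads (siStarPAP, batch 2) and 11163048 reads (siStarPAP, batch 1) at unique PASs, and RPM (reads per 1000000 reads) refers to these sums. Of the genes listed, 13351 stood in the tables of both batches, and 11614 of them passed the filter on low counts and were tested. The gene that was knocked down, TUT1 (chromosome 11, 62342517 to 62359109 in hg19), had 83 reads with siCtrl and 2 reads with siStarPAP in batch 1, or 10.2 RPM (exact Poisson 95% interval 8.16 to 12.7) and 0.179 RPM (0.0217 to 0.647). In batch 2 it had 6 and 4 reads, or 2.16 RPM (0.793 to 4.70) and 1.69 RPM (0.461 to 4.33), so that the KD could not be checked there. The TUT1 mRNA stood at 1.75% of siCtrl in batch 1 and at 78.3% in batch 2, where a fall was not detectable at this depth. Over both batches its log2 fold change was -3.25 ± 1.33 (SE), which did not pass the test (adjusted p = 0.223). Intervals here cover counting error only. Of the markers of the line, KRT18 had 3369 to 7140 RPM, VIM 122 to 240 RPM and NEFL 14.6 to 75.6 RPM, while KRT8, NEFM and PAX2 stayed at or below 5.04 RPM in these libraries. Of 6 markers of blood, liver, thyroid and muscle cells, TG was listed with 0 reads in the 4 libraries and the other 5 were not listed.

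TUT1, chr11:62342524-62342553 (-): tgaagggcAATAAAgctgctagtttattaa

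These are the 30 bases up to its PAS, read from the GRCh37 genome, which has the coordinates of hg19, with the polyadenylation signal in capitals. The TUT1 reads counted above ended at this site.

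With libraries scaled to their totals, more genes were called lower than higher in siStarPAP. The quasi-likelihood test of edgeR, fitted to the 4 libraries with a term for batch and Benjamini-Hochberg adjustment at 0.05, called 205 genes lower (1.77% of those tested) and 44 higher (0.379%). Each called gene moved the same way in both batches, and 194 of the genes called lower and 40 of those called higher passed 2-fold in each batch. The median log2 fold change over the genes tested was itself below 0, at -0.34 in the fit, -0.42 in batch 1 and -0.20 in batch 2. With TMM factors, which place this middle near no change (a median of -0.01), the split was 120 lower (1.03%) and 115 higher (0.990%), and 120 of the 205 and 44 of the 44 were called the same way. The split turned with RLE factors, to 122 lower and 162 higher, and with DESeq2 and its own size factors, to 89 lower and 187 higher. The direction of a gene near the middle therefore depends on the scale. Without a test, 388 of the 6607 genes that had 50 reads or more per batch lay more than 2-fold lower in both batches (5.87%), 78 lay more than 2-fold higher in both (1.18%), and 12 passed 2-fold in opposite directions.

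**Figure D1:**
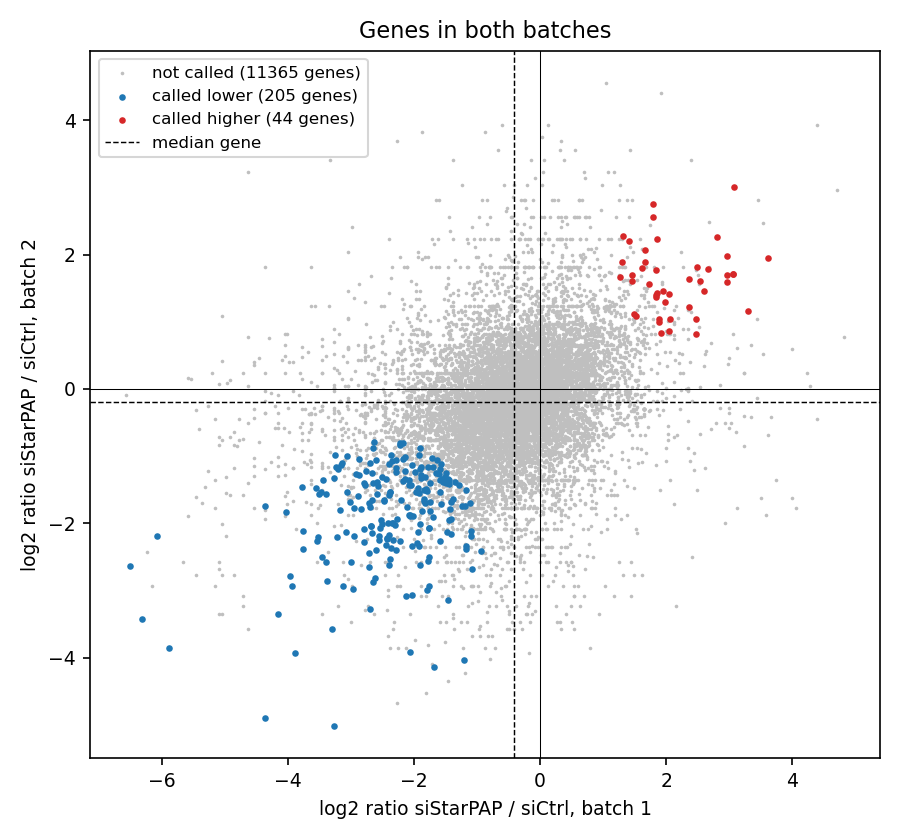
Log2 ratio of siStarPAP to siCtrl in batch 1 (horizontal axis) and in batch 2 (vertical axis) for the 11614 genes tested, after 1 read was added to each count. Blue points are the 205 genes called lower, red points the 44 called higher, grey points the remaining genes, and dashed lines the median gene of each batch, at -0.42 and -0.20.

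The batches did not give the same size of change for a typical gene. Over those 6607 genes the difference between the log2 ratios of the batches had an SD of 0.835. In batch 1 alone, 1429 of these genes lay more than 2-fold lower and 292 more than 2-fold higher, against 748 and 224 in batch 2 alone.

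The largest falls were those of CALCB, ZNF37A, BRSK2, PTGES, EEF2K, SRR, TPPP3, FAM131C, PTBP2, LOC645249, PRSS27 and FAM19A5. These are the 12 genes with the lowest fitted change among the 166 that were called lower and had 50 reads or more per batch. They encode proteins of different kinds, such as the neuropeptide CALCB, the AMPK-related kinase BRSK2 and the splicing repressor PTBP2. In each of the 12 genes both siCtrl libraries lay above both siStarPAP libraries, apart from LOC645249, whose siCtrl of batch 1 had 9.14 RPM and whose siStarPAP of batch 2 had 11.0 RPM. The choice of these genes by the size of their fall favours such a separation. Its share over all genes tested was not counted.

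CALCB (chromosome 11, 14926543 to 15103888), which encodes a calcitonin gene-related peptide, fell the most. It had 156 RPM in siCtrl and 16.0 RPM in siStarPAP of batch 1, and 368 and 11.0 RPM in batch 2. The fitted log2 fold change was -4.07 ± 0.44 (SE; adjusted p = 0.000935). CALCB was called with TMM factors (adjusted p = 0.000695) and by DESeq2 as well. Its reads lay almost wholly at 1 PAS, which took 99.7% and 98.3% of the reads of the gene in siCtrl of the 2 batches.

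BRSK2 (chromosome 11, 1411129 to 1483919) went from 12.1 to 1.07 RPM in batch 1 and from 18.0 to 2.12 RPM in batch 2, a log2 fold change of -3.30 ± 0.63 (adjusted p = 0.0155). The zinc finger gene ZNF37A went from 12.5 to 0.717 RPM and from 23.1 to 2.96 RPM (-3.55 ± 0.62, adjusted p = 0.0101). PTGES, which makes prostaglandin E, went from 26.8 to 1.88 RPM and from 16.2 to 3.39 RPM (-3.18 ± 0.58, adjusted p = 0.0116). These genes rested on few reads in siStarPAP, with between 5 and 21 reads in each of its libraries.

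PTBP2, a splicing repressor that is active in neurons, fell further in batch 1 than in batch 2. Its levels were 42.5 and 2.51 RPM in siCtrl and siStarPAP of batch 1, and 73.1 and 20.3 RPM in batch 2 (log2 fold change -2.93 ± 0.51, adjusted p = 0.0101). SRR, the serine racemase that makes D-serine, changed by nearly the same amount in each, from 26.7 to 3.31 RPM and from 33.1 to 3.81 RPM (-3.05 ± 0.47, adjusted p = 0.00849). EEF2K, the kinase that inhibits translation elongation through EEF2, went from 6.17 to 0.448 RPM and from 15.8 to 2.96 RPM, and it passed the test by a small margin (adjusted p = 0.0495) that was lost with TMM factors (adjusted p = 0.0810). The tubulin-binding TPPP3, FAM131C, the noncoding LOC645249, the protease PRSS27 and the secreted FAM19A5 had log2 fold changes between -3.04 and -2.82 with adjusted p between 0.0101 and 0.0250. Scaled to all PAS-supporting reads of each library, listed in the tables or not, EEF2K (adjusted p = 0.0791), FAM131C (0.0508) and LOC645249 (0.0595) were not called.

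Values of siPAPa and siPAPg, the KDs of the canonical poly(A) polymerases PAPα and PAPγ in batch 1, stand beside the same siCtrl library of batch 1. The library labelled siPAPg had 15 reads of PAPOLG, which encodes PAPγ, against 5 in siCtrl, so its label could not be checked by that gene. CALCB had 8.49 RPM in siPAPa and 9.65 RPM in siPAPg, below its 156 RPM in that siCtrl. BRSK2 had 0.739 and 0.230 RPM, and PTBP2 had 3.94 and 3.45 RPM. PTGES had 11.4 and 9.30 RPM, and ZNF37A had 6.34 and 3.33 RPM, in each case between the levels of siStarPAP and siCtrl.

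**Figure D2:**
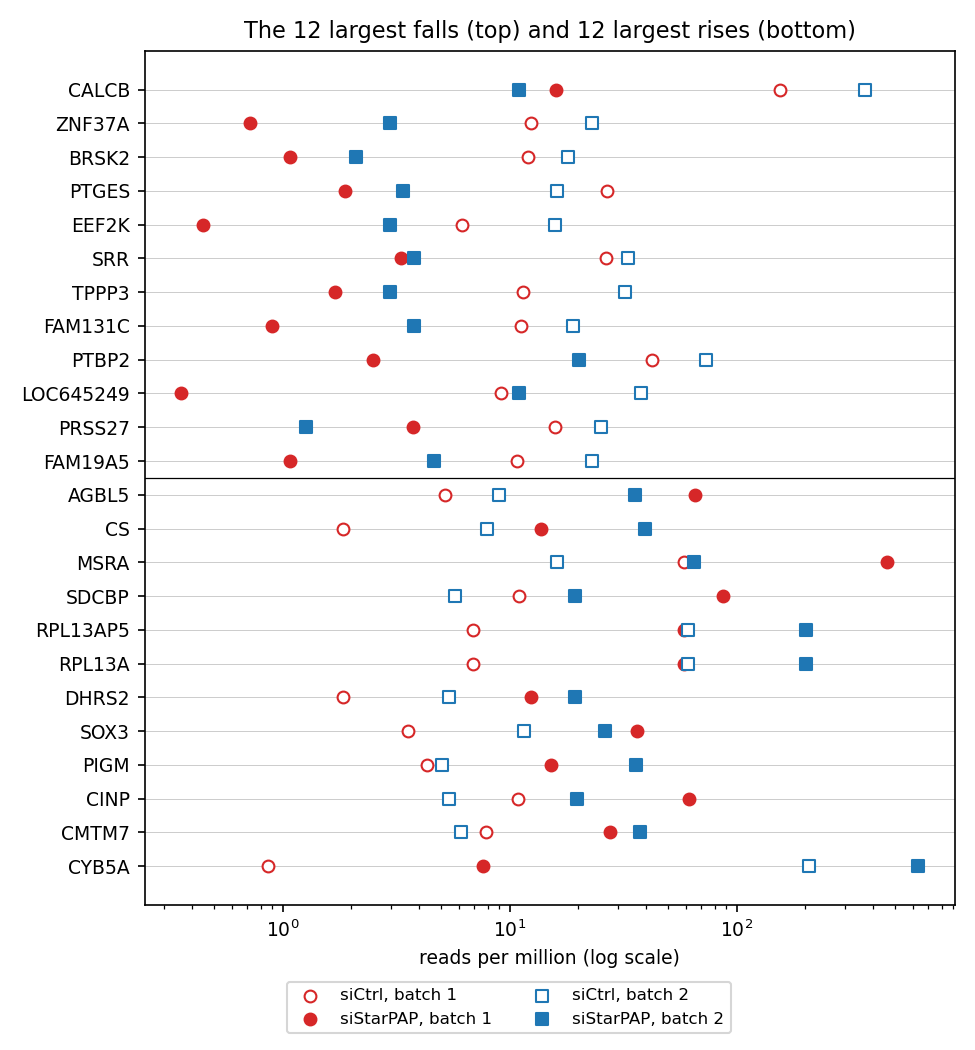
RPM (horizontal axis, log scale) of the 12 largest falls (upper block) and the 12 largest rises (lower block) among genes, with open marks for siCtrl, filled marks for siStarPAP, circles for batch 1 and squares for batch 2. In each gene the filled mark of a batch lies on the same side of its open mark in both batches, as the choice of these genes requires.

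CALCB, BRSK2 and ENO2 are shown for the genes that fell, and AGBL5, CS and CYB5A for those that rose. The 30 bases up to the most-read PAS of each gene are given in hg19, with the signal AATAAA or ATTAAA in capitals where they hold it.
CALCB, chr11:15100154-15100183 (+): ataatAATAAAtatttttgagtgcttacta
BRSK2, chr11:1482945-1482974 (+): gaattcctgcaagatatttttataaacttt
ENO2, chr12:7032831-7032860 (+): agcacctccATTAAAgtctgaatcagtgca
AGBL5, chr2:27282374-27282403 (+): gtgaatcAATAAAattagtttgtagcagaa
CS, chr12:56665483-56665512 (-): aatgcaaAATAAAtgtttttattaacaatg
CYB5A, chr18:71920531-71920560 (-): cttttaaaaatatatttggcttttaaagta

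The largest rises were those of AGBL5, CS, MSRA, SDCBP, RPL13A, RPL13AP5, DHRS2, SOX3, PIGM, CINP, CMTM7 and CYB5A. RPL13A and the pseudogene RPL13AP5 had the same counts in every library because they were assigned the same reads, so the 12 names stand for 11 independent rises. The PAS that the pair shares in both batches, at 49995565 of chromosome 19, lies within the span of RPL13A (49990767 to 49996314). In batch 1 most of their reads lay at other sites, and the share of each of the pair is uncertain there. AGBL5, an enzyme that trims glutamate from tubulin, rose the most, from 5.19 to 65.4 RPM in batch 1 and from 9.005 to 35.5 RPM in batch 2 (log2 fold change 2.88 ± 0.48, adjusted p = 0.00936). Its most-read PAS was in an intron. Both siStarPAP libraries lay above both siCtrl libraries in 9 of the 12 names, AGBL5 included, and the groups overlapped in RPL13A, RPL13AP5 and CYB5A. As with the falls, the choice by size favours such a separation, and its share over all genes was not counted.

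CS, the citrate synthase of the citric acid cycle, had 1.85 and 13.7 RPM in siCtrl and siStarPAP of batch 1, and 7.92 and 39.4 RPM in batch 2 (2.58 ± 0.48, adjusted p = 0.0134). MSRA, which reduces oxidised methionine, had 58.5 and 458 RPM in batch 1 and 16.2 and 64.8 RPM in batch 2 (2.53 ± 0.37, adjusted p = 0.00849). CYB5A, a cytochrome b5 of electron transfer, had 0.864 and 7.61 RPM in batch 1 and 208 and 630 RPM in batch 2 (2.08 ± 0.40, adjusted p = 0.0154). The level of CYB5A in siCtrl thus differed far more between the batches than between siCtrl and siStarPAP of a batch.

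SOX3, a transcription factor of neural progenitors, had 3.58 and 36.3 RPM in batch 1 and 11.53 and 26.2 RPM in batch 2 (2.29 ± 0.53, adjusted p = 0.0370), with a log2 ratio of 3.30 in batch 1 and 1.17 in batch 2. The remaining rises, those of the scaffold protein SDCBP, DHRS2, the GPI-anchor enzyme PIGM, the CDK2 partner CINP and CMTM7, had log2 fold changes between 2.17 and 2.49 with adjusted p between 0.0116 and 0.0461. Scaled to all PAS-supporting reads, SOX3 (adjusted p = 0.0742), DHRS2 (0.0782), PIGM (0.0569) and CMTM7 (0.0504) were not called. In siPAPa and siPAPg, against the same siCtrl of batch 1, AGBL5 had 46.4 and 47.0 RPM, CS 20.1 and 19.3 RPM, MSRA 419 and 208 RPM, and CYB5A 17.9 and 17.2 RPM. These values lie above siCtrl of batch 1 in each case.

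The known Star-PAP targets HMOX1, NQO1 and BIK fell in both batches. HMOX1, the haem oxygenase induced by oxidative stress, had 18.8 and 2.06 RPM in siCtrl and siStarPAP of batch 1, and 9.36 and 0.846 RPM in batch 2. Its log2 fold change was -3.25 ± 0.65 (adjusted p = 0.0197), and in batch 2 it rested on 26 and 2 reads. NQO1, a quinone reductase of the same response, had 35.3 and 4.48 RPM in batch 1 and 5.40 and 1.27 RPM in batch 2 (-2.74 ± 0.57, adjusted p = 0.0222). BIK, a pro-apoptotic member of the BCL2 family, had 431 and 115 RPM in batch 1 and 6.48 and 1.27 RPM in batch 2 (-1.99 ± 0.40, adjusted p = 0.0197), with 18 and 3 reads in batch 2. In each of these genes the siStarPAP library was the lower of its batch, and the siCtrl library of batch 2 lay below siStarPAP of batch 1 in BIK alone of the 3. In siPAPa and siPAPg HMOX1 had 2.83 and 8.50 RPM, NQO1 5.05 and 3.79 RPM, and BIK 69.3 and 124 RPM.

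HMOX1, chr22:35790171-35790200 (+): tgaaatAATAAAcaacattgtctgatagta
NQO1, chr16:69744744-69744773 (-): caaggAATAAAtgagagggaatcgactgta
BIK, chr22:43525689-43525718 (+): gagtgctcAATAAAatgttggtttccagca

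Each of these sequences ends at the most-read PAS of its gene and holds AATAAA. In HMOX1 and BIK the site took 100% of the reads of the gene in each of the 4 libraries.

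Few other members of the sets around these genes were called. Of 8 genes of Star-PAP and its partners or targets, 2 were called lower, HMOX1 and BIK, and 0 higher, beside 1.77% and 0.379% of all genes tested, with a median log2 fold change of -0.75. Of 14 genes of the NRF2 response to oxidative stress, 2 were called lower, HMOX1 and NQO1, and 0 higher, with a median of -0.41, near the -0.34 of the 11614 genes tested. GCLC, the catalytic subunit of glutathione synthesis in this set, had 38.5 and 29.02 RPM in batch 1 and 72.4 and 49.1 RPM in batch 2 (-0.48 ± 0.35, adjusted p = 0.509). Of 9 poly(A) polymerases and uridylyltransferases 0 were called, with a median of -0.66. Here the edgeR test gave 0 calls also among 17 cleavage and polyadenylation factors (median -0.36) and among 10 partners of U6 snRNA (-0.18), and with TMM factors it gave 0 in each of these 3 sets. At an unadjusted p below 0.05 the 3 sets held 1, 3 and 1 genes, beside 1988 of all 11614 genes tested. DESeq2 called 0, 1 and 1.

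Genes of the integrated stress response, the programme that ATF4 drives, included CHAC1, DDIT4 and PPP1R15A among the genes called lower. Of 16 tested, 3 were called lower and 0 higher, where 1.77% of all genes were lower and 0.379% higher, and the median of the set was -0.27 in batch 1 and -1.46 in batch 2, beside -0.42 and -0.20 over all genes. CHAC1, which degrades glutathione, had 15.7 and 6.72 RPM in siCtrl and siStarPAP of batch 1 and 443 and 26.7 RPM in batch 2 (log2 fold change -2.67 ± 0.54, adjusted p = 0.0207). DDIT4, an inhibitor of mTORC1, had 8.03 and 1.16 RPM in batch 1 and 58.3 and 16.9 RPM in batch 2 (-2.21 ± 0.46, adjusted p = 0.0221). PPP1R15A, which directs the dephosphorylation of the initiation factor eIF2, was called with column totals (-1.45 ± 0.36, adjusted p = 0.0478) but not with TMM factors (adjusted p = 0.118). Scaled to all PAS-supporting reads, CHAC1 (adjusted p = 0.0504), DDIT4 (0.0504) and PPP1R15A (0.0782) were not called. CHAC1 in siCtrl of batch 2 stood far above its level in the other 3 libraries.

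Polyadenylated transcripts of replication-dependent histone genes, whose main mRNAs end in a stem-loop without a tail, had the lowest median of the sets in the fit, -1.36. Of 47 such genes listed, 9 passed the filter on low counts and were tested. Of these 9, 2 were called lower and 0 higher, beside 1.77% and 0.379% of all genes tested. Medians of the 9 were -0.95 in batch 1 and -1.77 in batch 2. HIST1H1C, a linker histone, had 74.3 and 14.6 RPM in batch 1 and 9.72 and 1.69 RPM in batch 2 (-2.39 ± 0.45, adjusted p = 0.0153). HIST1H2AG, a core histone of the H2A family, had 421 and 112 RPM in batch 1 and 117 and 18.6 RPM in batch 2 (-2.24 ± 0.35, adjusted p = 0.00849). In 6 of the 9 genes the ratio lay below the median gene in both batches, as it did in 31.1% of all genes tested.

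Cytosolic ribosomal protein genes took the other end of the range. Of 71 tested, 64 lay above the median gene in both batches (90.1%, beside 31.1% of all genes tested), and their median log2 fold change was 0.53 in the fit, 0.54 in batch 1 and 0.65 in batch 2. The test called 1 of them higher, RPL13A, and 0 lower, and 3 higher with TMM factors, with which the median of the set was 0.87. Over all genes tested it called 0.379% higher, and 0.990% with TMM factors. At an unadjusted p below 0.05, 20 were higher and 0 lower, beside 320 higher and 1668 lower of all 11614 genes tested. DESeq2 with its own size factors called 20, beside 187 higher and 89 lower over all genes. Together these genes held 7.31% of the reads in siCtrl and 12.9% in siStarPAP of batch 1, and 8.11% and 12.8% in batch 2, with exact binomial 95% intervals at most 0.0853 percentage points wide. Of the 71 genes, 60 were among the 2904 genes with the highest levels, of which 42.6% lay above the median gene in both batches. The part of the level in this result was not tested.

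RPL13A had 6.91 and 58.4 RPM in batch 1 and 61.2 and 202 RPM in batch 2 (log2 fold change 2.37 ± 0.40, adjusted p = 0.00936). In batch 1 the PAS found in both batches took 8.93% and 3.53% of its reads in siCtrl and siStarPAP, and 100% in batch 2, so that its reads lay at different sites in the 2 batches.

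Mitochondrial ribosomal protein genes and subunits of oxidative phosphorylation stood between these extremes. Of 73 mitochondrial ribosomal protein genes 0 were called by edgeR with either scaling and 2 by DESeq2. At an unadjusted p below 0.05, 4 were lower and 3 higher, beside 1668 and 320 of all 11614 genes tested. Of the 73 genes, 53.4% lay above the median gene in both batches, beside 31.1% of all genes tested. Of 74 oxidative phosphorylation subunits 63.5% did. Of the same 74, 1 was called lower and 1 higher, beside 1.77% and 0.379% of all genes tested. NDUFB2, a subunit of complex I, had 409 and 68.7 RPM in batch 1 and 444 and 162 RPM in batch 2 (-2.02 ± 0.36, adjusted p = 0.0101). NDUFA3, another subunit of complex I, had 2.96 and 7.52 RPM in batch 1 and 72.0 and 268 RPM in batch 2 (1.66 ± 0.37, adjusted p = 0.0289), a call lost when scaled to all PAS-supporting reads (adjusted p = 0.0625). NDUFB2 stood at 473 RPM in siPAPa and 357 RPM in siPAPg, beside 409 RPM in their siCtrl.

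Single members of other sets were called lower, as were 1.77% of all genes tested. ENO2, the neuronal enolase, fell from 142 to 22.5 RPM in batch 1 and from 80.3 to 10.6 RPM in batch 2 (-2.77 ± 0.37, adjusted p = 0.00470), 1 of 14 glycolysis enzymes tested. IER3, an immediate early gene that modulates apoptosis, fell from 340 to 99.8 RPM and from 54.7 to 12.7 RPM (-1.91 ± 0.34, adjusted p = 0.0116), 1 of 10 in its set. FDXR, the ferredoxin reductase and a p53 target, fell from 85.4 to 22.5 RPM and from 74.9 to 25.4 RPM (-1.75 ± 0.36, adjusted p = 0.0210), 1 of 9.

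The counts of the next sets also stand beside 1.77% lower and 0.379% higher of all genes tested. Of 60 translation factors, EEF2K was called lower and EIF3L higher. EIF3L, a subunit of the initiation factor eIF3, had 196 and 605 RPM in batch 1 and 7.204 and 25.8 RPM in batch 2 (1.71 ± 0.35, adjusted p = 0.0207). PSMD9, an assembly chaperone of the proteasome, was the 1 of 34 proteasome genes that was called lower (-1.51 ± 0.37, adjusted p = 0.0461), a call lost with TMM factors (adjusted p = 0.114) and when scaled to all PAS-supporting reads (0.0791). Of 377 ZNF genes, 2 were called lower, ZNF37A and ZNF365, with a median of -0.33. Among heat shock proteins, endoplasmic reticulum chaperones, interferon-stimulated genes, snoRNA host genes, genes of cholesterol synthesis, replication and chromatin assembly, cohesion, SR proteins and hnRNPs, edgeR called 0 genes with column totals and 0 with TMM factors. Each of these sets had 0 to 3 genes at an unadjusted p below 0.05, beside 1988 of all 11614 genes tested, and DESeq2 called 0 or 1.

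**Figure D3:**
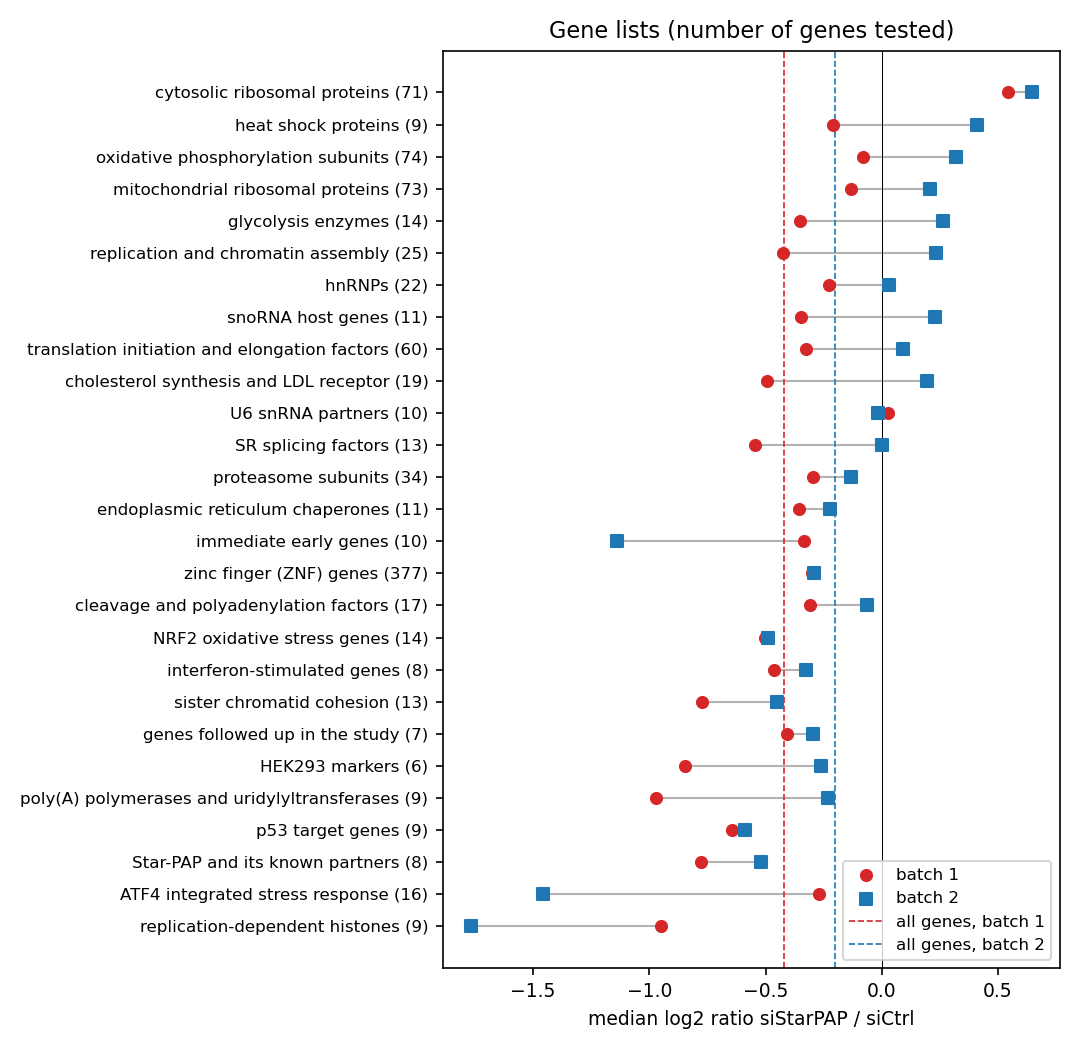
Median log2 ratio of siStarPAP to siCtrl of each gene list (horizontal axis) in batch 1 (red circles) and batch 2 (blue squares), with the number of genes tested in brackets and dashed lines at the median of all 11614 genes. Cytosolic ribosomal protein genes lie to the right of both lines, at 0.54 and 0.65, and polyadenylated histone transcripts to the left, at -0.95 and -1.77.

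Of the genes that the study followed up, NEAT1 was called. NEAT1 (chromosome 11, 65190245 to 65213011), the noncoding RNA around which paraspeckles form, had 40.7 and 10.3 RPM in siCtrl and siStarPAP of batch 1, and 362 and 124 RPM in batch 2. The log2 fold change was -1.76 ± 0.34 (adjusted p = 0.0154). Both siStarPAP libraries lay below the siCtrl of their own batch, though siStarPAP of batch 2 lay above siCtrl of batch 1. In siPAPa and siPAPg NEAT1 had 24.9 and 32.2 RPM. The study selected several of these genes for APA changes in its 3′READS data, so that their direction in these libraries is not independent evidence. GAPDH served the study as a control, and GCLC as a gene that Star-PAP does not target.

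NEAT1, chr11:65193968-65193997 (+): agcacaAATAAAgtttgagttctaaactca

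The NEAT1 site shown, its distal one, took 77.9% and 76.5% of the reads of the gene in batch 1 and 99.5% and 97.3% in batch 2. The gene fell at this site, while the share of the site changed by -1.36 and -2.22 percentage points. An upstream site (65191749) went from 13.3% to 5.22% in batch 1, on 44 and 6 reads, and had 1 read in each library of batch 2. The study measured distal against first-PAS transcripts by qRT-PCR and reported that Star-PAP favours the distal PAS. EIF4A1, CHAF1A, CYTH2, GPBP1, GCLC and GAPDH did not pass the test as genes, with log2 fold changes of -0.90 ± 0.35, -0.09 ± 0.33, -0.60 ± 0.38, -0.28 ± 0.31, -0.48 ± 0.35 and 0.48 ± 0.31 and adjusted p from 0.194 to 0.927.

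EIF4A1, the RNA helicase of translation initiation, changed its use of sites in both batches. It has 2 PASs in its last exon, and the distal one (position 7482324 of chromosome 17) took 96.5% of its reads in siCtrl and 81.9% in siStarPAP of batch 1 (exact Clopper-Pearson 95% intervals 95.5 to 97.3 and 79.0 to 84.5). In batch 2 it took 53.3% (51.3 to 55.2) and 23.0% (21.1 to 25.03). Fisher's exact test, two-sided and within a batch, gave an adjusted p of 3.26e-30 in batch 1 and 1.40e-90 in batch 2. The proximal site (7481945) gained what the distal one lost, from 3.49% to 18.1% and from 46.7% to 77.0%. The starting shares in siCtrl differed between the batches by more than the KD moved them.

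EIF4A1 proximal, chr17:7481916-7481945 (+): tttgAATAAAtgtcactttttgaggcaaaa
EIF4A1 distal, chr17:7482295-7482324 (+): aattctgAATAAAatgacttggaaactgcc

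Both sites of EIF4A1 have AATAAA. The trinucleotide ATA (AUA in the RNA), which the study examined for binding of Star-PAP, occurs between 100 and 41 nt upstream of the distal site. It is absent from that window of the proximal one.

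CHAF1A, a subunit of the chromatin assembly factor CAF-1, and CYTH2, which activates ARF GTPases, also moved towards their proximal site. The distal site of CHAF1A (4443394 of chromosome 19) went from 39.6% to 30.6% in batch 1 and from 38.4% to 10.3% in batch 2 (Fisher's exact test, adjusted p = 0.0176 and 7.02e-19). That of CYTH2 (48985571 of chromosome 19) went from 18.0% to 4.58% and from 61.3% to 31.1% (adjusted p = 0.00168 and 0.000865). The distal site of CYTH2 rested on 25 and 6 reads in batch 1. Unlike in EIF4A1, ATA occurs between 100 and 41 nt upstream of the proximal site of CHAF1A and not of its distal site. It is absent from that window at both sites of CYTH2.

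GPBP1, a GC-rich promoter binding protein, lost share at its proximal site in both batches, unlike the genes above, and no tested site of GCLC passed in both batches. The first PAS of GPBP1 went from 3.97% to 2.49% and from 37.7% to 28.4% (Fisher's exact test, adjusted p = 0.00237 and 9.32e-05). Its second moved in opposite directions, from 90.0% to 87.7% in batch 1 and from 62.0% to 71.3% in batch 2. The most distal PAS of GCLC, at 47.8% and 57.4% in batch 1 and at 81.1% and 83.6% in batch 2, passed the test in batch 1 and not in batch 2 (adjusted p = 0.886). GAPDH had 1 PAS in both batches.

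**Figure D4:**
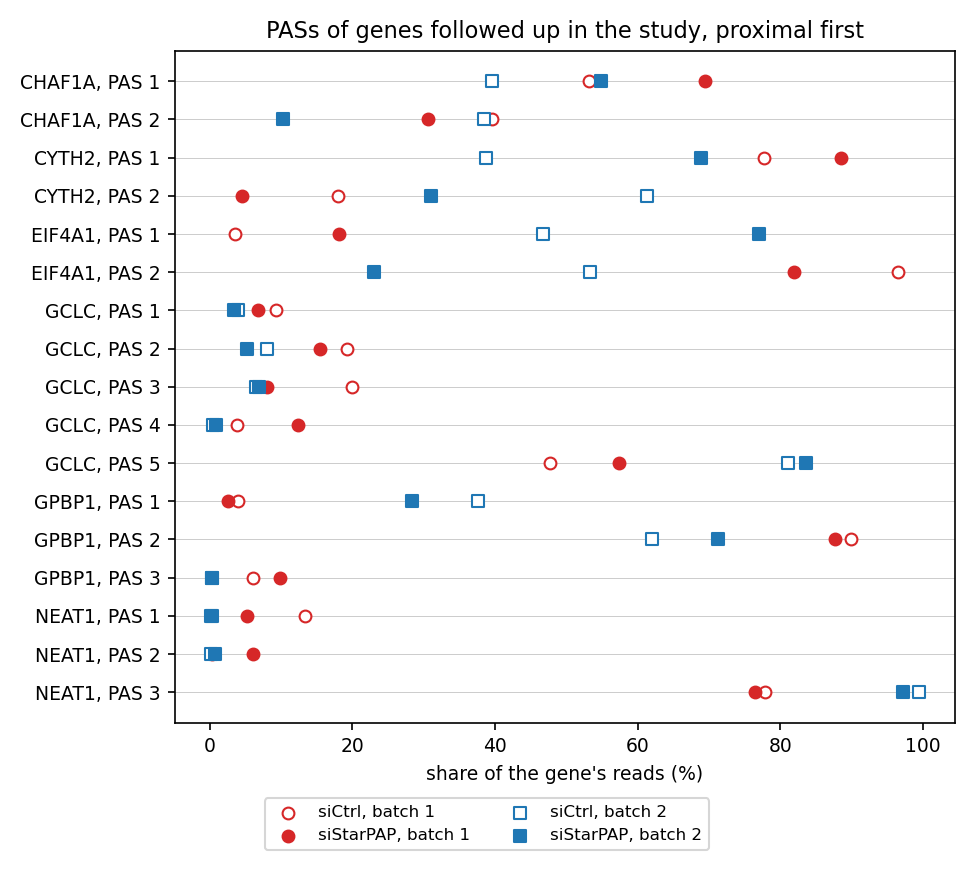
Share of the reads of a gene at each PAS found in both batches (horizontal axis, %) for genes that the study followed up, numbered from the proximal site, with open marks for siCtrl, filled marks for siStarPAP, circles for batch 1 and squares for batch 2. The second PAS of EIF4A1, CHAF1A and CYTH2 lies lower in siStarPAP than in siCtrl of the same batch.

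Across all genes, the PASs of the batches were paired within 24 nt on the strand of the same gene, which joined 23517 PASs with 97.2% and 95.7% of the sense reads of batches 1 and 2. The level of a PAS was tested in the same way as that of a gene. Of 15583 PASs tested, 40 were lower (0.257%) and 14 higher (0.0898%), each under a different gene name. NBL1 and C1orf15-NBL1 list the same site with the same reads, so the 40 are 39 distinct sites. Of the 40, 38 lay in genes that were themselves called lower and 37 in last exons, and of the 14, 11 lay in genes called higher and 12 in last exons. With TMM factors 177 were lower and 177 higher. A single PAS in both tables was the rule among genes called lower, 131 of 205 (63.9%), against 44.1% of all genes tested and 52.3% of those called higher.

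Relative use, the share of a PAS in the reads of its gene, was tested with diffSpliceDGE of edgeR, which asks whether a PAS changed differently from the other PASs of its gene. Of 9053 PASs in 3659 genes, 0 were called (0%), with 137 lower and 110 higher at an unadjusted p below 0.05 and a smallest adjusted p of 0.184. Simulated data showed that this test found 4 of 200 sites changed 4-fold, so that a count of 0 says little. Fisher's exact test, which compares the reads of a pair of libraries and takes in no variation between replicates, passed an adjusted p of 0.05 in both batches with a fall at 242 PASs (2.67%) and with a rise at 247 (2.73%). At 173 further PASs it passed in both batches with opposite directions. Taken singly, it passed at 4461 of the 9053 PASs in batch 1 and at 1184 in batch 2. Whether the passes in both batches exceed coincidence was not tested. The PASs with 1 direction lay in 361 genes.

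Most PASs with a relative change lay in last exons, and the others almost wholly in introns. Introns held 13.0% of the PASs tested, 17.4% of those that fell and 28.7% of those that rose, and last exons held 86.2%, 82.2% and 70.9%. Within last exons with several sites, proximal and distal sites both rose and fell. Of 2984 proximal sites 2.31% fell and 2.08% rose, and of 2984 distal sites 2.41% fell and 2.31% rose.

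The PASs with the largest relative change were drawn from 172 falls and 166 rises with enough reads. The 30 bases that end at each site are given in hg19, with AATAAA or ATTAAA in capitals where they hold it. The first 8 fell and the last 8 rose.
CDC42, chr1:22416591-22416620 (+): aacaaaggAATAAAaccatcctgtttgaaa
MGAT4A, chr2:99342402-99342431 (-): agttgaatAATAAAgactttcgttttggca
RALA, chr7:39746181-39746210 (+): tgtttattataaagcttaaattttatatca
RCC2, chr1:17765684-17765713 (-): tgggcaccATTAAAgtttttatttttcgtg
EIF4EBP2, chr10:72173911-72173940 (+): ggaAATAAAgggttttttcctgccatttta
ZADH2, chr18:72913134-72913163 (-): atggctaagagggaaaacgcttacattcaa
NIPBL, chr5:37064405-37064434 (+): aataagagtaaagacacgggtacaaattaa
PRPSAP1, chr17:74307014-74307043 (-): ctgaagttgcaAATAAAataatttgttgtc
ARL6IP1, chr16:18809231-18809260 (-): ggctccAATAAAtggtaggtagcataatga
CKAP5, chr11:46811480-46811509 (-): atggcATTAAAgatgaggtgggacttttta
ADAM11, chr17:42857952-42857981 (+): tatAATAAAatggcaccttccccctttcaa
PBX2, chr6:32154750-32154779 (-): taattggagtatagtagcatgtccccacaa
OXCT1, chr5:41731627-41731656 (-): AATAAAaagcaaaaggagcatttataatta
IPO5, chr13:98674709-98674738 (+): actcctcAATAAAcaacattgaatacaaaa
C19orf55, chr19:36253240-36253269 (+): cttcaggaAATAAAgcaggtgacatcccca
BLOC1S2, chr10:102034907-102034936 (-): tggacttaccagtaaaatcaaatgagagga

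Among the falls, RALA, ZADH2 and NIPBL have neither signal in these bases, and among the rises PBX2 and BLOC1S2 have neither. The sites of CDC42, MGAT4A, RCC2, EIF4EBP2, ARL6IP1, CKAP5, PBX2 and C19orf55 lie in introns, and the others in last exons.

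CDC42, a small GTPase of cell polarity, had the largest relative fall, at an intronic site. The site took 7.77% of the reads of CDC42 in siCtrl (5.98 to 9.89) and 0 of 1343 reads in siStarPAP of batch 1, which allows a share of up to 0.223%. In batch 2 it took 20.9% (15.7 to 26.9) and 0.629% (0.0159 to 3.45), and Fisher's exact test gave adjusted p of 6.45e-26 and 8.06e-09. In siPAPa and siPAPg the CDC42 site took 0.330% and 0.406%, against the same siCtrl of batch 1.

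The intronic site of RCC2, a regulator of chromosome condensation, went from 25.7% to 2.79% in batch 1 and from 10.0% to 0.834% in batch 2 (Fisher's exact test, adjusted p = 3.92e-16 and 2.44e-39). That of MGAT4A, an enzyme of N-glycan branching, went from 10.9% to 0.510% and from 12.4% to 1.23%. The last-exon site of PRPSAP1, a partner of phosphoribosyl pyrophosphate synthetase, went from 17.0% to 3.53% and from 19.9% to 3.58%. In siPAPa and siPAPg, beside the same siCtrl of batch 1, the RCC2 site took 0.262% and 1.42%, the MGAT4A site 11.4% and 30.1%, and the PRPSAP1 site 11.7% and 9.60%.

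The other 4 falls were at sites of NIPBL, RALA, ZADH2 and EIF4EBP2. The site of NIPBL, the cohesin loader, went from 4.89% to 0 of 417 reads in batch 1, which allows up to 0.719%, and from 29.9% to 9.77% in batch 2. The site of RALA, a Ras-like GTPase whose gene was called higher as a whole, went from 6.36% to 0.356% and from 12.9% to 2.66%. The site of ZADH2, a zinc-binding dehydrogenase, went from 59.3% to 1.82% and from 24.1% to 5.97%. EIF4EBP2, a repressor of the cap-binding protein EIF4E, had an intronic site at 18.3% and 1.21% in batch 1 but at 0.538% and 0.180% in batch 2 (adjusted p = 0.0432).

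PBX2, a homeodomain protein that pairs with HOX factors, gained at an intronic site. The site took 8.85% of the PBX2 reads in siCtrl (4.33 to 15.7) and 55.6% in siStarPAP (49.6 to 61.4) of batch 1, and 6.12% (2.28 to 12.9) and 23.5% (14.8 to 34.2) in batch 2 (Fisher's exact test, adjusted p = 6.83e-18 and 0.0128). It took 49.0% in siPAPa and 53.9% in siPAPg. The site of OXCT1, an enzyme of ketone body use, went from 4.75% to 19.7% and from 4.38% to 21.2%. That of C19orf55 went from 8% to 42.0% and from 11.6% to 37.0%.

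CKAP5, a microtubule polymerase, gained an intronic site. This CKAP5 site took 0 of 73 reads in siCtrl of batch 1, which allows up to 4.11%, then 27.5% in siStarPAP, and 13.6% and 36.8% in batch 2 (adjusted p = 3.57e-07 and 0.0311). The sites of the metalloprotease-like ADAM11 and the nuclear importer IPO5 went from 2.33% to 16.5% and from 1.06% to 7.68% in batch 1, and from 15.2% to 42.5% and from 6.45% to 19.6% in batch 2. ARL6IP1, a shaping protein of the endoplasmic reticulum, had 13.6% and 38.9% in batch 1 but 0.174% and 8.13% in batch 2.

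BLOC1S2, a subunit of lysosome-related organelle complexes, gained share at a site while the gene was called lower as a whole. Its share went from 12.6% to 55.8% and from 2.33% to 9.52%, with 120 and 178 reads at the site in batch 1 but 41 and 28 reads in batch 2. The BLOC1S2 site stood at 14.8 and 15.9 RPM in batch 1 and at 14.8 and 11.8 RPM in batch 2, so the share rose without more RNA at the site in batch 2. Over the 16 sites the widest 95% interval of a share spanned 26.2 percentage points.

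**Figure D5:**
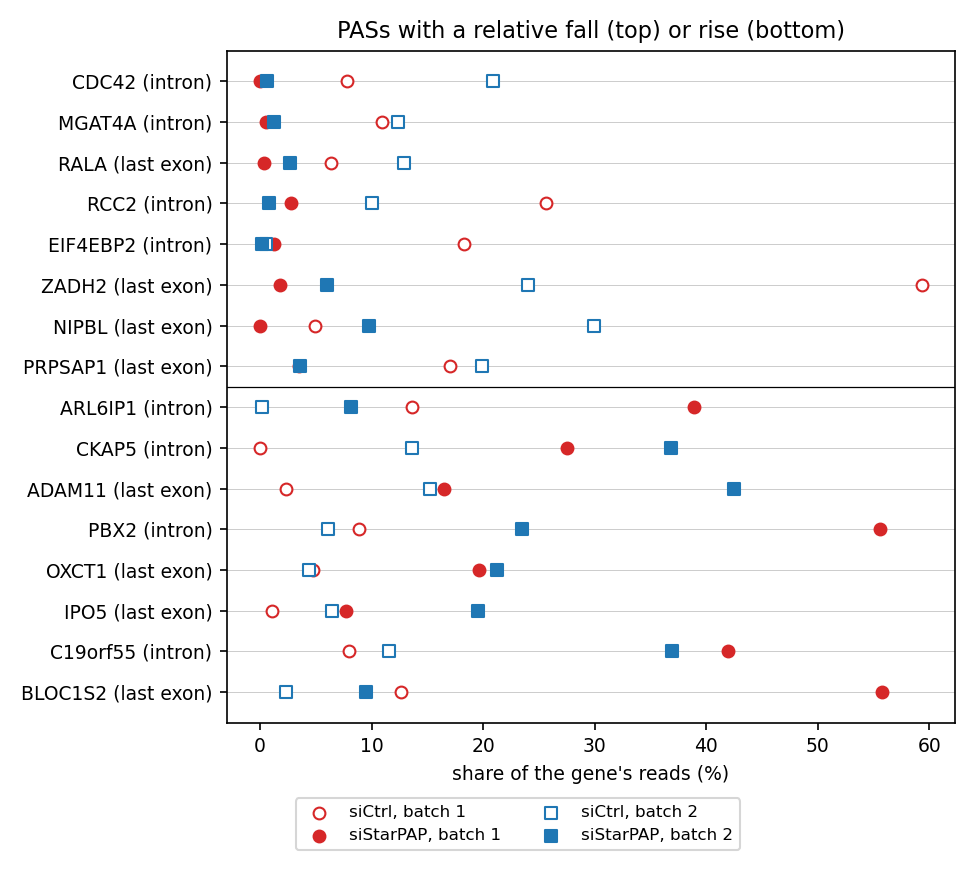
Share of the reads of a gene (horizontal axis, %) at the 8 largest relative falls (upper block) and the 8 largest relative rises (lower block) among PASs, with open marks for siCtrl, filled marks for siStarPAP, circles for batch 1 and squares for batch 2. Filled marks lie left of the open mark of their batch in the upper block and right of it in the lower block, as the choice of these sites requires.

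Both longer and shorter 3′UTRs were found. The log2 ratio of distal to proximal reads at the 2 most-read sites of the last exon was compared between siStarPAP and siCtrl in 2517 genes with at least 20 reads per library. The median change was 0.01 in batch 1 and 0.05 in batch 2. It passed 2-fold towards the distal site in both batches in 138 genes (5.48%), towards the proximal site in 121 (4.81%), and in opposite directions in 183 (7.27%). In batch 1 alone it passed towards the distal site in 22.1% of genes and towards the proximal site in 21.3%. In batch 2 alone these shares were 19.6% and 17.9%. Whether the counts in both batches exceed coincidence was not tested. 

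Use of sites upstream of the last exon changed both ways. Of 1132 genes with such a site and at least 20 reads per library, 80 gained more than 10 percentage points of upstream reads in both batches (7.07%), 51 lost as much in both (4.51%), and 33 changed by as much in opposite directions (2.92%). In batch 1 alone 22.2% of these genes gained and 17.1% lost as much, and in batch 2 alone 15.2% and 13.3%. Summed over genes, sites upstream of the last exon held 4.83% and 4.94% of the reads in siCtrl and siStarPAP of batch 1. In batch 2 they held 4.76% and 4.58%.

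The sequence upstream of the PASs was read on the strand of the RNA. AATAAA within 40 nt stood before 53.3% of 8966 sites tested for relative use, 57.7% of 241 that fell and 54.9% of 246 that rose. ATA between 100 and 41 nt upstream stood before 59.2%, 52.3% and 54.5%. For levels, AATAAA stood before 59.6% of 15392 sites tested, 29 of 39 that were lower and 14 of 14 that were higher, and ATA before 55.5%, 13 of 39 and 5 of 14. The median share of A and T in the last 100 nt was 65% for sites tested for their level, 54% for those lower and 64% for those higher. TGTA in the same window as ATA stood before 39.4% of the sites tested for relative use, 41.1% of those that fell and 34.1% of those that rose, and GGGG before 12.0%, 15.4% and 12.2%. A site may hold several of these motifs, and a match describes the letters, not binding.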

How the data were processed

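3′READS and 3′READS+ data of siCtrl and siStarPAP from 2 batches were used, together with siPAPa and siPAPg of batch 1 as values beside them. Per the study's methods and the submitters' processing notes, the authors aligned to hg19 with Bowtie2, discarding reads that mapped to several places or that had fewer than 2 untemplated Ts. After clustering ends within 24 nt and dropping rare PASs, they deposited raw counts per PAS, with no normalization. The version of Bowtie2 was not given in the sources used here. A PAS listed in 1 batch alone may have been dropped in the other.

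Sense rows were summed per gene and scaled by the totals of each column, with PASs listed under several genes counted once in the total. Genes in both tables that passed filterByExpr were tested with the quasi-likelihood test of edgeR 4.0.16 in R 4.3.3, with batch as a block, which leaves 1 residual degree of freedom. The fit added prior degrees of freedom drawn from all genes tested, with a median of 15.1. Libraries were paired by batch, since protocol and siCtrl were those of the batch. With 1 library per condition and batch, the correlation of deviations from group means carries no information on pairing beyond this. The biological coefficient of variation was 0.305 for genes. PASs were tested in the same way, relative use with diffSpliceDGE and with two-sided Fisher's exact tests in scipy 1.17.1, adjusted over all PASs. Log2 ratios of a batch have 1 read added to each count. DESeq2 1.42.0 was an alternative. SEs are those of the fit.

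The gene lists, genes and sites were chosen with earlier results of these data known. Named are TUT1, genes the study followed up, the 12 largest falls and rises among called genes with the same direction in both batches and 50 reads or more per batch, up to 4 called members of a list, and the 8 PASs with the largest relative fall and rise with at least 50 reads of the gene per library and 20 of the PAS per batch. Since diffSpliceDGE called none, these PASs were taken from the calls of Fisher's exact test, a choice made after the data were seen. One item is not reported here. The library of both canonical polymerases was not analysed here.

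On simulated data with 200 changes of 4-fold, edgeR recovered 96 genes with 3 false calls among 11577, DESeq2 77 genes with 3, the PAS test 34 of 200 with 1 false call among 15673, and diffSpliceDGE 4 of 200 with 0 among 9100. Gene spans came from GENCODE on GRCh37 by symbol. Reads carry no molecular identifiers.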

Additional observations from a re-analysis of the deposited data

How the results depend on the processing

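The count of called genes moved with the scaling, the filter and the replicate block. From 205 lower and 44 higher, edgeR gave 120 and 115 with TMM factors, 122 and 162 with RLE factors, and 79 and 16 with the study's totals of PAS-supporting reads. DESeq2 gave 89 and 187 with its own size factors, and 68 higher with size factors from the column totals, where the lower count stayed within 1.5 times. With no filter on low counts 619 were lower and 108 higher, and with at least 50 reads in each batch 404 and 85. Of the 205 and 44, 78 and 16 were called the same way under column totals, TMM, RLE and the study's totals. With upstream antisense rows included, 150 of 11743 genes were lower and 30 higher. Without the replicate block, edgeR called 0 genes lower and 0 higher, with 75 and 8 at an unadjusted p below 0.05. The 2 batches differ in protocol, so that this fit puts their difference into the spread. The causes of the other shifts were not tested.

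For PASs, 40 lower and 14 higher became 134 and 32 with sites matched only at the same position, 177 and 177 with TMM factors, 395 and 90 with no filter, and 0 and 0 without the block (49 and 13 at an unadjusted p below 0.05). Relative use, with 0 calls, gave 2 falls and 1 rise with no filter, and 242 and 247 by Fisher's exact test. Genes past 2-fold in both batches, 388 lower and 78 higher, were 179 and 170 with TMM factors, 110 and 35 with at least 200 reads, and 1331 and 255 with no filter and 1 read added. With a single batch the counts ranged from 748 to 1429 lower and from 224 to 292 higher. The median log2 fold change of -0.34 became -0.0145 with TMM factors and 0.0268 with RLE factors. Chosen after seeing the data, a minimum of 50 reads per library left 64 genes longer and 55 shorter of 1447 in place of 138 and 121 of 2517.

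Of the 47 named genes 40 were called. Of these, 12 lost their call with the study's totals, 3 with TMM factors, 0 with no filter, and 1 of the 25 for which DESeq2 gave an adjusted p. None of the 40 changed direction under these alternatives or in a single batch, which says little. Every called gene moved the same way in both batches, and the largest falls and rises were chosen for that. The smallest log2 change of a called gene was 1.305 in size, above the shift of the median between scalings. Of the 7 not called, CHAF1A, at -0.09, was at 0.22 with TMM factors, 0.26 with DESeq2 and 0.07 without batch 1, and GPBP1, at -0.28, was at 0.04 with TMM factors and 0.07 with DESeq2. Leaving out a single library leaves 0 residual degrees of freedom and gave no test.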

Other observations

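Noncoding transcripts, those with NR identifiers, had a lower median change than coding ones. Over 327 of them the median log2 fold change was -0.56, with 8 called lower and 1 higher, beside -0.33 over 11287 coding genes, with 197 and 43. The medians by batch were -0.63 and -0.40 for noncoding and -0.41 and -0.20 for coding transcripts. NEAT1 and LOC645249 are among the 8.

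Genes with low levels had a lower median ratio than genes with high levels in both batches. In the 2904 genes below 6.23 RPM the medians were -0.57 and -0.35, in the 5806 genes with intermediate levels they were -0.46 and -0.23, and in the 2904 genes above 47.7 RPM they were -0.23 and -0.10. Calls ran the other way, with 8 lower and 0 higher in the lowest group and 90 and 29 in the highest.

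The genes called lower had a median span of 22.3 kb in the genome, those called higher 29.3 kb and all genes tested 35.9 kb, with a span matched for 86.3%, 95.5% and 88.5% of them.

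The 12 genes that passed 2-fold in opposite directions include RSAD1, with 340 and 104 reads in siCtrl and siStarPAP of batch 1 and 23 and 48 in batch 2, and USP13, with 18 and 76 and with 85 and 33.

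Reads at upstream antisense sites, which were left out of the values of the report, made up 0.520% of the reads in siCtrl and 0.382% in siStarPAP of batch 1, and 0.987% and 0.669% in batch 2, lower in siStarPAP of both batches.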
